A study of Mus musculus with 13 samples.

Results

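Transcripts of Mael and 9 other genes of the piRNA pathway were followed in E14.5 male mouse embryos, in primordial germ cells, from which sperm later arise. The 10 genes were taken by name from the 35976 symbols of the count table, and all 10 were found there. They are the PIWI genes Piwil2 and Piwil4, the helicase genes Ddx4 and Mov10l1, the mitochondrial factors Asz1 and Pld6, the genes Mael and Gtsf1, the methyltransferase gene Henmt1 and the co-chaperone gene Fkbp6. The libraries came from 4 Tet1 genotypes with 3 libraries each. KO is a Tet1 knockout. The HxD allele is known to make a TET1 protein without catalytic activity, and the V allele one that stalls at 5-hydroxymethylcytosine. WT is the wild type. TET1 is an enzyme that oxidises methylated cytosine in DNA, a step towards its removal. All 4 groups carry an Oct4-GFP reporter, by which the germ cells were sorted, and each sample held 5000 cells. Which part of Tet1 the knockout lacks is not stated in the labels, nor is it stated that replicates came from separate embryos. A p-value here therefore reflects the variation among these libraries, some of which may be technical.

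PIWI proteins bind small RNAs called piRNAs, which guide them to transcripts of transposable elements. Precursor transcripts are cut and trimmed on the mitochondrial surface and in germ granules, loaded onto PIWI proteins and methylated at their 3′ end. In fetal male germ cells PIWIL2 cuts transposon transcripts in the cytoplasm, while PIWIL4 enters the nucleus and directs new DNA methylation to transposons. Several genes of the pathway are active in germ cells only, and promoters of some of them are methylated in somatic tissues.

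Library totals ran from 13584484 counts in V 3 to 29641963 in HxD 1. Levels are given as CPM, read counts relative to library size after TMM scaling. Tet1 itself had 213, 201 and 225 CPM in KO 1 to 3, rounded to whole CPM, against 596, 589 and 639 in WT 1 to 3, and in HxD and V it ranged from 364 to 735 CPM. Of the genes that average at least 8 CPM, 104 had no read in WT 3, 36 in HxD 2, 33 in V 3, 22 in HxD 3 and at most 13 in each other library. WT 3 thus stands apart by this count, and V 3 and HxD 3 (15037595 counts) by their low totals. The 10 members together summed to 2003 CPM in WT 1, against 1545 in WT 2 and 1577 in WT 3. The 12 germ cell markers examined were each detected in every genotype. Their summed level was 4439 to 4806 CPM in KO, 4454 to 4965 in HxD, 4635 to 5107 in V and 5080 to 5240 in WT. Dazl, an RNA-binding protein gene among them, had 576 to 1172 CPM in the mutant libraries and 1605 to 1906 CPM in WT. A sum without Dazl was not part of the planned rules. Without it the sums were 3468 to 4049, 3878 to 4022, 3463 to 4114 and 3328 to 3552 CPM in the same order. Sertoli cell markers summed to 373 CPM in V 2 and to 135 CPM in WT 3, the next highest library. The lowest WT sum was 17.5 CPM, and the highest sums were 70.8 CPM in KO and 46.7 CPM in HxD. Leydig, interstitial, endothelial, macrophage and erythroid markers each summed to less than 32 CPM in every library. The part of these markers in the results was not tested. In RNA from many cells, fewer cells that express a gene and less RNA per cell cannot be told apart.

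Mael, which encodes an HMG-box protein of germ granules that is needed for transposon silencing in the germline, was the member with the clearest difference. It had 9.54, 23.9 and 32.9 CPM in KO 1 to 3, against 173, 100.5 and 89.6 CPM in WT 1 to 3. It had 20.2, 19.8 and 8.92 CPM in HxD 1 to 3. It had 31.0, 34.9 and 52.9 CPM in V 1 to 3. Each of the 9 mutant libraries lay below each of the 3 WT libraries. The KO mean was 22.1 ± 11.8 CPM and the WT mean 121 ± 45.2 CPM (SD, n = 3 each), a 5.47-fold lower level in KO (log2 fold change -2.45, SE 0.39, edgeR adjusted p = 0.0018). In HxD the level was 7.40-fold lower than in WT, at 16.3 ± 6.40 CPM (SD, n = 3), and it had the smallest p of all 14702 genes tested (log2 fold change -2.89, SE 0.40, edgeR adjusted p = 0.000567). In V the level was 39.6 ± 11.7 CPM (SD, n = 3), and the difference from WT did not pass the threshold (log2 fold change -1.61, 95% interval -2.39 to -0.84, edgeR adjusted p = 0.293). KO, HxD and V are each set against the same 3 WT libraries, so these are not independent repeats. The threshold throughout is an adjusted p of 0.05 over all genes tested.

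The promoters of 4 members show the CG dinucleotides, the sites at which DNA methylation is placed in mammals, as capitals. Mael is shown because it fell in KO and HxD, Ddx4 as the most abundant member, Gtsf1 as a scarce member with few CG dinucleotides, and Fkbp6 because its KO and WT levels lay close together. Each sequence is the 250 bases before the gene's start on its own strand, from RefSeq on GRCm38.p6, at chr1:166238745-166238994 for Mael, chr13:112652311-112652560 for Ddx4, chr15:103430428-103430677 for Gtsf1 and chr5:135350045-135350294 for Fkbp6, all on the minus strand.
Mael: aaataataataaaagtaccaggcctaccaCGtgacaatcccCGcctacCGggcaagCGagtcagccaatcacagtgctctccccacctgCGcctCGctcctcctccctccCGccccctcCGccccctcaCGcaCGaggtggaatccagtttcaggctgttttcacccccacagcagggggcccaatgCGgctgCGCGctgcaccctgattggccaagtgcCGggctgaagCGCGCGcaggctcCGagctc
Ddx4: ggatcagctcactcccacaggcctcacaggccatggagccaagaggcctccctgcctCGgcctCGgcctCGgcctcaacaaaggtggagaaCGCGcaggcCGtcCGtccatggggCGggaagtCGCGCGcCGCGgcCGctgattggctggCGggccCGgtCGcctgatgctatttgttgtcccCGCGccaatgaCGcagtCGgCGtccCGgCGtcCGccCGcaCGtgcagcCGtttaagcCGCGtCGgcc
Gtsf1: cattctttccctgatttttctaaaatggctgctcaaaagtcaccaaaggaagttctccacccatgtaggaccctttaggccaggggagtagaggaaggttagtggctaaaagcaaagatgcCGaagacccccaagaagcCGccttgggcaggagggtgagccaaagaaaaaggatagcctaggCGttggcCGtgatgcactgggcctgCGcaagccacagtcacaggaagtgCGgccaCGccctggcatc
Fkbp6: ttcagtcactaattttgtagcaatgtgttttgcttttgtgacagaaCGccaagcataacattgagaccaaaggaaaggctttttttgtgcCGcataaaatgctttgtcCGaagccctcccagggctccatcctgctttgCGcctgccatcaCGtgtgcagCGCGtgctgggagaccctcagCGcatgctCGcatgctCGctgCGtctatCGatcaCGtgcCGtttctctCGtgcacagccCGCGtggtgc

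In this window Mael had 18 CG dinucleotides, Ddx4 31, Gtsf1 7 and Fkbp6 17, against a median of 6 over the 32851 promoters of the RefSeq table. The share of those promoters with fewer was 78.3% for Mael, 94.8% for Ddx4, 53.7% for Gtsf1 and 76.5% for Fkbp6. Of the 10 members 9 had an entry in the table, and the outermost start was used where a gene had several. For the other entries the counts were 10 for Piwil4, 19 for Mov10l1, 15 for Asz1, 14 for Pld6 and 30 for Henmt1. Mael and Fkbp6 thus had nearly the same count at these starts. The count depended on the start used: a second entry had 29 for Fkbp6, 0 for Piwil4 and 21 for Pld6. The E-box CACGTG, which reads the same on both strands and is bound by MAX with its partners, occurred in 6.0% of all promoters. It was present once in Mael, 223 bases before the start, once in Ddx4, Mov10l1 and Pld6, and 2 times in Fkbp6. The E2F core TCCCGC, searched on both strands and not overlapping the E-box, occurred in 16.9% of all promoters. Among the members it was found in Mael, 143 bases before the start, and in Ddx4, 136 bases before it. A match is a description of these letters only, and no methylation or binding was measured in these libraries.

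**Figure D1:**
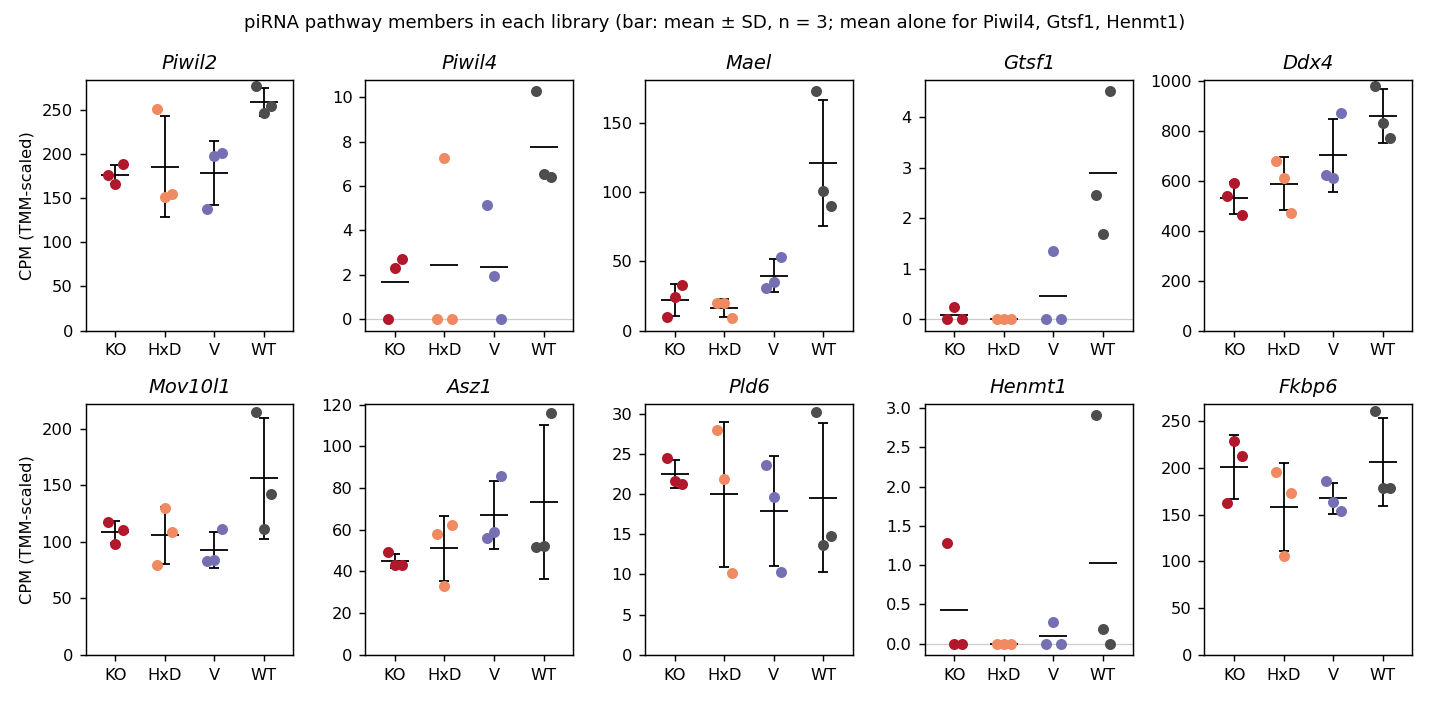
CPM (TMM-scaled, linear vertical axes) of the 10 members in every library of KO, HxD, V and WT. Points are libraries, long bars are means and error bars SD (n = 3), with means alone for Piwil4, Gtsf1 and Henmt1. The 9 mutant libraries of Mael sit between 8.92 and 52.9 CPM, below the 3 WT libraries at 89.6 to 173 CPM.

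Among the PIWI genes, Piwil2, whose protein is also called MILI, was well expressed and somewhat lower in the mutants. It had 175, 166 and 188 CPM in KO 1 to 3, against 276, 246 and 253 CPM in WT 1 to 3. It had 251, 151 and 155 CPM in HxD 1 to 3, and 137, 197 and 201 CPM in V 1 to 3. KO and V did not overlap WT, while HxD 1 lay within the WT range. The log2 fold changes against WT were -0.55 in KO (SE 0.19, edgeR adjusted p = 0.364), -0.48 in HxD (edgeR adjusted p = 0.548) and -0.54 in V (edgeR adjusted p = 0.705), so none passed the threshold.

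Piwil4, whose protein MIWI2 acts in the nucleus, was scarce, with a WT mean of 7.74 CPM. It had 0, 49 and 71 counts in KO 1 to 3, against 205, 144 and 146 counts in WT 1 to 3. It had 0, 170 and 0 counts in HxD 1 to 3, and 115, 43 and 0 counts in V 1 to 3. A count of 0 was thus found in 4 of the 9 mutant libraries and in none of the 3 WT libraries, and HxD 2, at 7.27 CPM, lay among the WT values of 6.40 to 10.3 CPM. The log2 fold change in KO was -2.21 with a 95% interval of -6.54 to 2.13 (edgeR adjusted p = 0.922), an interval that spans both directions. The libraries with 0 counts were KO 1, HxD 1, HxD 3 and V 3. Of these HxD 1 had the highest total of all libraries, and HxD 3 and V 3 had the lowest totals.

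Gtsf1, which encodes a zinc finger protein that works with PIWI proteins, was also scarce. It had 0, 5 and 0 counts in KO 1 to 3, against 49, 37 and 103 counts in WT 1 to 3. All 3 HxD libraries had 0 counts, and the V libraries had 0, 30 and 0. WT was higher than every mutant library. Gtsf1 passed the filter on low counts through WT alone, so its groups had to differ, and no test of it passed the threshold (edgeR adjusted p = 0.763 in KO, 0.582 in HxD and 1 in V). Its values are therefore a description, and no fold is drawn from them.

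Ddx4, the germ cell RNA helicase also called VASA, was the most abundant member. It had 539, 591 and 465 CPM in KO 1 to 3, against 981, 834 and 772 CPM in WT 1 to 3. It had 683, 613 and 473 CPM in HxD 1 to 3, and 624, 613 and 874 CPM in V 1 to 3. KO and HxD did not overlap WT, while V 3 lay within the WT range. The level was 1.62-fold lower in KO than in WT, with a log2 fold change of -0.70 (SE 0.17, edgeR adjusted p = 0.0823), just short of the threshold, and DESeq2 called it (log2 fold change -0.71, adjusted p = 0.00543). Over the alternative settings its edgeR adjusted p in KO ranged up to 0.392, without KO replicate 3. In HxD the log2 fold change was -0.55 (SE 0.17, edgeR adjusted p = 0.377) and in V -0.29 (95% interval -0.64 to 0.05, edgeR adjusted p = 0.833).

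Mov10l1, a helicase needed to begin piRNA production from precursor transcripts, had 117, 98.3 and 110.5 CPM in KO 1 to 3, against 215, 111 and 142 CPM in WT 1 to 3. It had 79.2, 129.5 and 108 CPM in HxD 1 to 3, and 83.2, 83.8 and 111 CPM in V 1 to 3. Only in V did every library lie below every WT library, by less than 1 CPM between V 3 and WT 2. The V log2 fold change was -0.75 (SE 0.23, edgeR adjusted p = 0.575), that of KO -0.52 and that of HxD -0.56. These rested in part on WT 1: without it they were -0.45 in V, -0.22 in KO and -0.26 in HxD. The test of V against KO gave a difference of -0.23 with a 95% interval of -0.70 to 0.23.

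Asz1 and Pld6 encode proteins of the outer mitochondrial membrane, where piRNA precursors are processed. PLD6, also called Zucchini, is the nuclease linked to precursor cleavage. Asz1 had 49.1, 43.0 and 42.9 CPM in KO 1 to 3, against 51.8, 52.1 and 116 CPM in WT 1 to 3. It ranged from 33.1 to 62.1 CPM in HxD and from 55.9 to 85.6 CPM in V, both overlapping WT. Its WT mean rested on WT 3: the KO log2 fold change was -0.70 (edgeR adjusted p = 0.539) with that library and -0.21 without it. Pld6 had 24.5, 21.6 and 21.3 CPM in KO 1 to 3, against 30.2, 13.6 and 14.8 CPM in WT 1 to 3, and its groups overlapped in every comparison. Its log2 fold changes against WT were 0.20 in KO, 0.03 in HxD and -0.13 in V, with a KO 95% interval of -0.83 to 1.24.

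Henmt1, the enzyme that methylates the 3′ end of piRNAs, was close to 0. It had 29, 0 and 0 counts in KO 1 to 3, 0 in each HxD library, 0, 6 and 0 in V 1 to 3, and 58, 4 and 0 in WT 1 to 3. It did not pass the filter and was not tested. Fkbp6, whose protein assists the loading of piRNAs onto PIWI proteins, had 162, 229 and 212 CPM in KO 1 to 3, against 260.3, 179 and 179 CPM in WT 1 to 3. It ranged from 105 to 195 CPM in HxD and from 153 to 186 CPM in V. The groups overlapped, and the KO log2 fold change was -0.04 with a 95% interval of -0.46 to 0.39 (edgeR adjusted p = 1), against -0.38 in HxD and -0.30 in V, neither past the threshold. Without WT 1 these were 0.17 in KO, -0.18 in HxD and -0.09 in V.

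**Figure D2:**
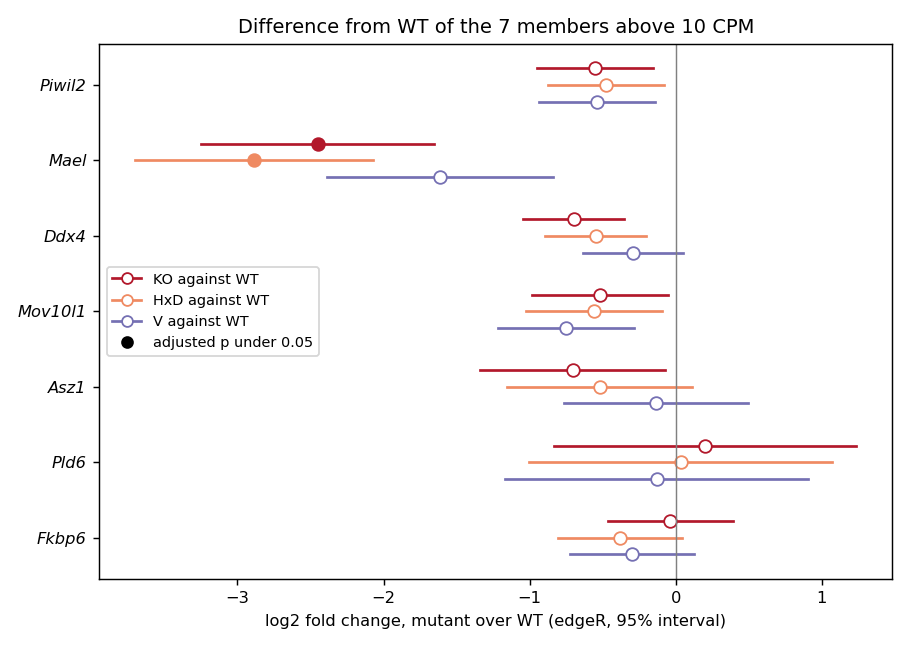
Log2 fold change over WT (horizontal axis) with the 95% interval from edgeR for the 7 members above 10 CPM, in KO, HxD and V from top to bottom for each gene. Filled points have an adjusted p under 0.05. Only Mael in KO (-2.45) and HxD (-2.89) is filled, and the intervals of Pld6 cross 0 in all 3 comparisons.

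Of the 10 members 9 were tested. Among these 1 was called lower and 0 higher in KO, where 0.15% of all genes tested were called lower. In HxD again 1 was called lower, against 0.0204% of all genes. In V edgeR called 0 members, and 0% of all genes. At an unadjusted p under 0.05 in V 3 members were lower (Mael, Piwil2 and Mov10l1), against 3.2% of all genes, and DESeq2 called 0 members. Gtsf1, whose separation the filter fixed, is left out of the next counts, which rest on 8 tested members. In KO 5 members had every library below every WT library, against 8.15% of all genes, and these were Mael, Piwil2, Piwil4, Ddx4 and Asz1. In HxD 2 did so, Mael and Ddx4, against 7.22% of all genes. In V 4 did so, Mael, Piwil2, Piwil4 and Mov10l1, against 6.06% of all genes. At an unadjusted p under 0.05 there were 5 members lower in KO, against 4.54% of all genes, and 4 in HxD, against 4.82%. The members were chosen with results of these data known, so these counts are a description.

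Set together, with equal weight for KO, HxD and V, the mutants had less Mael than WT, by -2.32 on the log2 scale (SE 0.28, edgeR adjusted p = 2.89e-05), with the smallest p of all genes in this comparison. Mael was the 1 member called in it, against 0.102% of all genes called lower. Leaving out Gtsf1, which passed the filter through WT alone, Mael was the 1 member with all 9 mutant libraries below all WT libraries, against 1.29% of all genes. The other members, again without Gtsf1, at an unadjusted p under 0.05 were Ddx4 (-0.51, edgeR adjusted p = 0.126), Mov10l1 (-0.61, edgeR adjusted p = 0.195) and Piwil2 (-0.52, edgeR adjusted p = 0.195), against 6.24% of all genes lower at that p. Without WT replicate 1, the highest WT library for Mael, the Mael value was -1.97 (edgeR adjusted p = 0.000359), and without WT 3 and V 3 it was -2.58 (edgeR adjusted p = 0.000903).

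The relation of Mael to other members within a library does not depend on the scaling of libraries. These ratios were chosen after the values were seen. Per 100 reads of Ddx4, Mael had 1.77, 4.05 and 7.06 reads in KO 1 to 3, against 17.6, 12.05 and 11.6 in WT 1 to 3. The HxD libraries had 2.95, 3.23 and 1.89, and the V libraries 4.97, 5.69 and 6.05. Per 100 reads of Fkbp6 the means were 10.6 ± 4.81 in KO, 11.4 ± 6.90 in HxD, 24.2 ± 9.26 in V and 57.6 ± 8.21 in WT (SD, n = 3 each). By both ratios every mutant library lay below every WT library, so Mael was lower relative to these germ cell transcripts as well as relative to all reads.

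**Figure D3:**
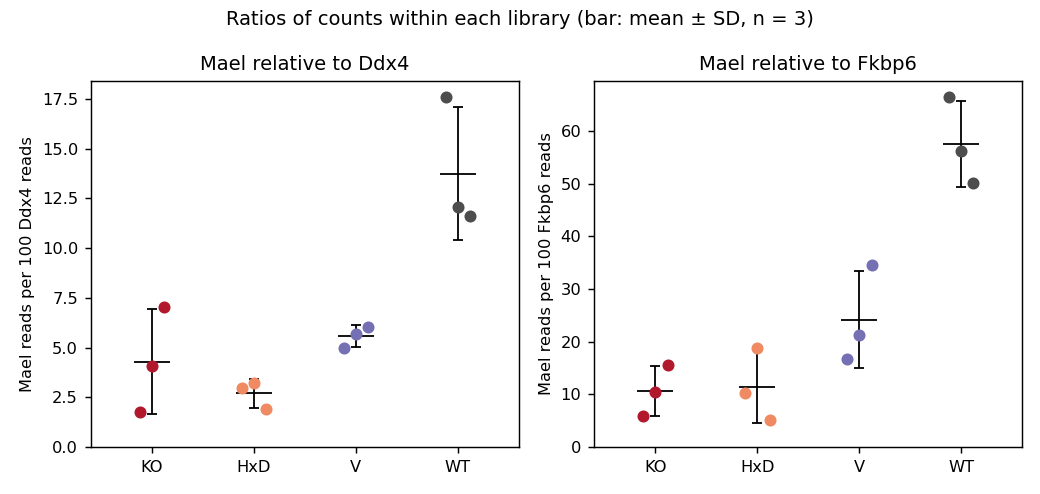
Reads of Mael per 100 reads of Ddx4 (left) and per 100 reads of Fkbp6 (right) in each library of KO, HxD, V and WT, on linear axes from 0. Points are libraries, long bars means and error bars SD (n = 3). KO averages 4.29 and HxD 2.69 Mael reads per 100 Ddx4 reads, V 5.57 and WT 13.8.

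The mutants were also compared with each other. Mael had 30.99 to 52.9 CPM in V against 8.92 to 20.2 CPM in HxD, with no overlap, but the difference of 1.27 on the log2 scale (95% interval 0.50 to 2.05) did not pass the threshold (edgeR adjusted p = 0.861). The same separation, with every V library higher, held for 4.79% of all genes. Against KO, the V level of Mael was higher by 0.84 on the log2 scale (95% interval 0.07 to 1.60, edgeR adjusted p = 1), and V 1 lay within the KO range. HxD and KO overlapped in Mael, and differed by -0.44 on the log2 scale (95% interval -1.20 to 0.33, edgeR adjusted p = 1). Ddx4 was higher in every V library than in every KO library (log2 fold change 0.40, 95% interval 0.06 to 0.75, edgeR adjusted p = 1), and so was Asz1 (0.57, SE 0.31, edgeR adjusted p = 1), which makes 2 members against 5.15% of all genes. EdgeR called 0 members in each of the 3 comparisons among mutants, where it called 0.0068% of all genes in HxD against KO, 0.0204% in V against KO and 0% in V against HxD, and DESeq2 called 0 members as well. At an unadjusted p under 0.05 there were 0 members in HxD against KO, where 4.67% of all genes passed. There were 2 higher in V against KO (Mael and Ddx4), against 2.29% of all genes, and 1 higher in V against HxD (Mael), against 3.43%.

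Levels of different genes were compared per kilobase of exon, with exon lengths from GENCODE M21, which may not be the annotation used for the counts. In WT the order was Ddx4 at 286 ± 35.7 CPM per kb, Fkbp6 at 117 ± 26.9, Mael at 69.8 ± 26.1, Piwil2 at 48.9 ± 2.996, Mov10l1 at 37.3 ± 12.7, Asz1 at 25.9 ± 13.1, Pld6 at 11.1 ± 5.26, Gtsf1 at 2.07 ± 1.05, Piwil4 at 1.44 ± 0.41 and Henmt1 at 0.385 (SD, n = 3 each). The ranges over libraries overlapped between Mael and Piwil2, Piwil2 and Mov10l1, Mov10l1 and Asz1, and Gtsf1 and Piwil4. Neighbours elsewhere in the WT order did not overlap. Mael thus ranked at place 3 of 10 in WT, at place 7 in KO (12.8 ± 6.79 CPM per kb) and in HxD (9.41 ± 3.69), and at place 5 in V (22.8 ± 6.75). In KO its range overlapped those of Pld6 and Asz1, and in HxD that of Pld6. In V it overlapped those of Asz1, Mov10l1 and Piwil2. The exact place of Mael is thus not separated from those of these neighbours. Its order relative to Mov10l1 did differ between genotypes. In WT every Mael library (51.7 to 99.7 CPM per kb) lay above every Mov10l1 library (26.5 to 51.3). In KO every Mael library (5.5 to 19.0) lay below every Mov10l1 library (23.5 to 28.0). The same held in HxD (5.1 to 11.6 against 18.9 to 31.0). Ddx4 and Fkbp6 kept places 1 and 2 in all 4 genotypes, with ranges apart from each other and from the next gene.

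Other genes of the pathway were described from a list of 24, of which 23 were in the table and 20 were tested. In KO 18 of the 20 had a negative log2 fold change and the median was -0.49, against 49.5% negative and a median of 0.00 over all genes tested. In HxD 17 were negative with a median of -0.41, against 51.6% and -0.02 over all genes. In V 17 were negative with a median of -0.31, against 48.9% and 0.01 over all genes. EdgeR called 1 of them lower in KO, against 0.15% of all genes, and 0 in HxD and V, against 0.0204% and 0%. At an unadjusted p under 0.05 there were 6 lower in KO, 7 in HxD and 5 in V, and 0 higher in each. Over all genes 4.54% were lower at that p in KO, 4.82% in HxD and 3.2% in V. DESeq2 called 2 lower in KO, Tdrd1 and Tdrd12, and 0 in HxD and V, where over all genes it called 225 in KO, 215 in HxD and 80 in V. Tdrd12 is named here after its values were seen. All 3 medians use the same WT libraries, and the counts and medians were not computed without WT 1. Without WT 1 the KO log2 fold change of Stk31 went from -0.45 to -0.16. That of Tdrd5 went from -0.82 to -0.52.

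Tdrd1, a tudor-domain scaffold that binds PIWIL2 in germ granules, was the gene that edgeR called. It had 14.53, 21.4 and 44.1 CPM in KO 1 to 3, against 194, 75.4 and 68.3 CPM in WT 1 to 3 (log2 fold change -2.08, SE 0.40, edgeR adjusted p = 0.0127). Without WT replicate 1 the log2 fold change was -1.43 and the call ended (edgeR adjusted p = 0.122). In the 3 mutants together Tdrd1 was lower by a log2 fold change of -1.49 (edgeR adjusted p = 0.0193), which ended as a call without WT replicate 1 (-0.84, edgeR adjusted p = 0.472). Tdrd7, another tudor-domain gene, averaged 52.1 ± 13.3 CPM in KO and 108 ± 36.6 in WT (SD, n = 3 each), with log2 fold changes of -1.05 in KO (edgeR adjusted p = 0.147) and -1.04 in HxD (edgeR adjusted p = 0.279). Tdrd5 had a log2 fold change of -0.77 in HxD (edgeR adjusted p = 0.401), and -0.47 without WT 1. In V the genes with the smallest p were Tdrd1 (-1.22, edgeR adjusted p = 0.579) and Stk31, a gene for a tudor-domain kinase-like protein (-0.53, edgeR adjusted p = 0.757, and -0.24 without WT 1).

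**Figure D4:**
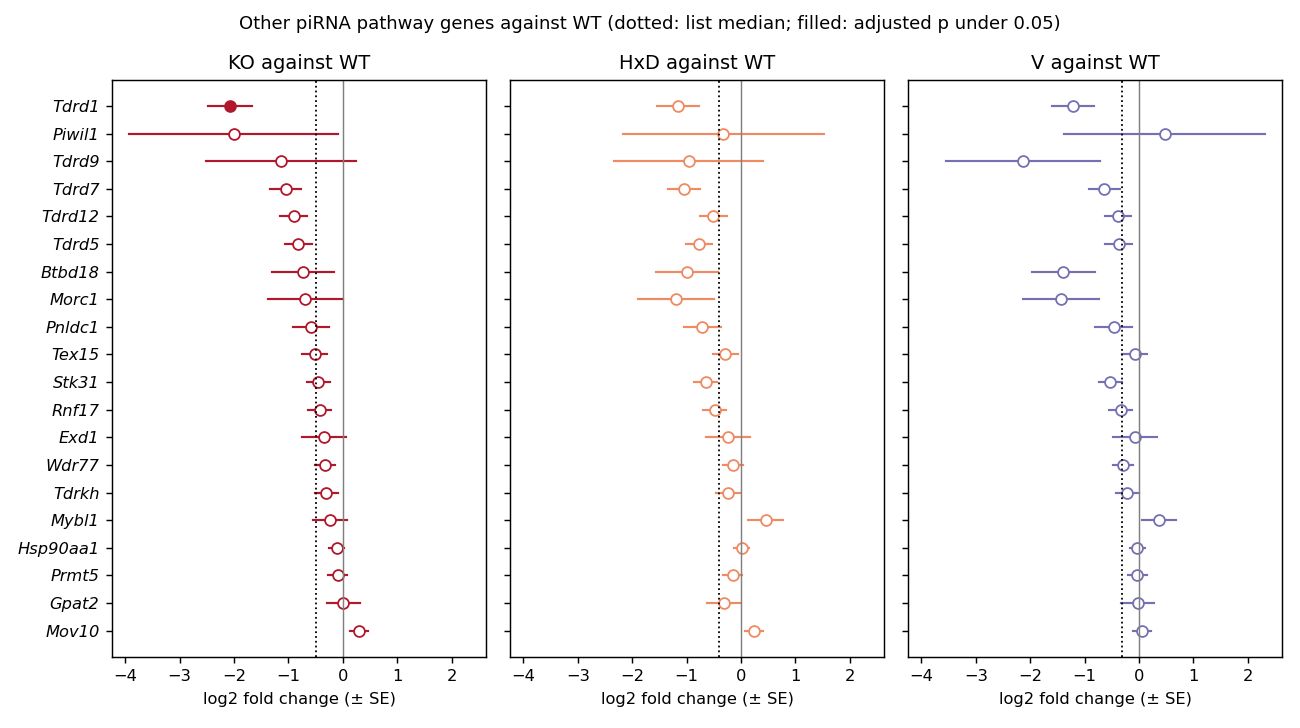
Log2 fold change over WT (horizontal axis, ± SE from edgeR) of the 20 tested genes of the pathway that are not among the 10 members, in KO, HxD and V, ordered by the KO value. The dotted line is the median of the list (-0.49, -0.41 and -0.31), and only Tdrd1 in KO (-2.08) is filled as called.

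The genes closest to Mael in their pattern over the 12 libraries were found by the root mean square difference in log2 CPM after each gene was centred on its mean, among 8979 genes averaging at least 8 CPM. They were Foxj2 (0.72), Smurf1 (0.73), Rgma (0.76), Sycp1 (0.78) and Frmpd1 (0.79), where the median gene had 1.30. Sycp1, which encodes a protein of the synaptonemal complex of meiosis, averaged 26.7 ± 9.72 CPM in KO, 24.0 ± 8.71 in HxD, 33.3 ± 16.5 in V and 86.0 ± 47.0 in WT (SD, n = 3 each). Smurf1, a ubiquitin ligase gene, averaged 36.6 ± 5.42 CPM in KO, 34.0 ± 6.35 in HxD, 48.1 ± 5.29 in V and 88.7 ± 24.1 in WT (SD, n = 3 each). Since the genes were picked for this likeness, no test of them is given. With WT 3 and V 3 left out, 3 of the 5 remained among the closest 5, and Foxj2 and Sycp1 did not.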

How the data were processed

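RNA was measured by sequencing in 12 libraries of sorted E14.5 male germ cells, after capture of mRNA on oligo-dT beads, per the labels' protocols. The values deposited by the authors are raw counts of reads for each gene symbol. Tools named per the submitters' processing notes include featureCounts 2.0.3, STAR 2.7.10b, Trim Galore 0.6.7, SAMtools 1.9 and FastQC. The same notes name the builds GRCm39 and mm10 without a role. Read filters, the strand setting and the annotation were not given in the sources used here, so overlapping or antisense genes cannot be told apart. A column that names no sample (1) was not used, and 1 further WT sample of the labels was not analysed here.

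Genes were filtered with the default of edgeR 4.0.16 (minimum count 10), which left 14702, scaled by TMM and tested with edgeR's quasi-likelihood F-test in 1 fit of the 12 libraries on genotype. P-values are two-sided, adjusted by the Benjamini-Hochberg method across the genes tested. The tests were tested on simulated data. The common biological coefficient of variation, 0.932, limits which changes can be called. All pairs of genotypes and the mean of the 3 mutants against WT were compared, 7 comparisons in all. No pair of libraries was identical, and every pair differed beyond sampling noise.

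The members, the list of other pathway genes, the marker lists and the rules were chosen with earlier results of these data known. All members are named. From the other pathway genes the rule takes those called in any comparison and, for KO, HxD and V against WT, the 2 with the smallest p, and it takes the 5 genes closest to Mael. Alternatives were RLE scaling, DESeq2 1.42.0, no filter, a stricter filter (1 CPM in 6 libraries), fits on 2 genotypes, a replicate block, leaving out each library, and leaving out WT 3 and V 3 together.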

Additional observations from a re-analysis of the deposited data

How the results depend on the processing

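Mael was called lower in KO, in HxD and in the mean of the mutants under every alternative run, 19, 19 and 18 in number, with log2 fold changes of -2.86 to -2.09, -3.07 to -2.54 and -2.58 to -1.97. The number of members called in KO was 2 with DESeq2, 2 without the expression filter, 2 with the replicate block and 1 to 2 when a library was left out, the added member being Ddx4 each time. In V it was 1 without the filter, 1 with the replicate block and 0 to 1 when a library was left out. The added member was Mael each time, and among single libraries it was called without KO replicate 1, 2 or 3 (adjusted p = 0.034, 0.0456 and 0.044). In 14 of the 19 alternatives Mael was not called in V. Without WT replicate 1 its V log2 fold change was -1.26 (edgeR adjusted p = 0.743). For the mean of the mutants the number of members called was 2 with DESeq2, 3 without the filter, 2 with the replicate block and 1 to 3 when a library was left out. The cause was not tested. In HxD it was 1 under every alternative. Values near 0 changed sign: with WT 3 and V 3 left out Pld6 was -0.13 in HxD and -0.0398 in the mean of the mutants, and Asz1 was 0.15 in V. Leaving out single libraries moved Pld6 from -0.0019 to 0.66 in KO, -0.29 to 0.49 in HxD, -0.37 to 0.33 in V and -0.17 to 0.49 in the mean, Fkbp6 from -0.14 to 0.17 in KO, and Asz1 from -0.35 to 0.36 in V and -0.65 to 0.043 in the mean. Tdrd7 gained a call in KO in 4 of 19 alternatives, in HxD in 2 and in the mean in 9 of 18, and Tdrd1 gained one in HxD (adjusted p = 0.0225) and V (0.0302) without the filter. Without the filter Tdrd5 gained one in KO (edgeR adjusted p = 0.0456) and in the mean (0.0386), and Stk31 one in the mean (0.0268). Without HxD replicate 1 Stk31 gained one in HxD (edgeR adjusted p = 0.0406) and in the mean (0.0309). Tdrd1 lost its calls with the stricter filter (adjusted p = 0.0713 in KO and 0.104 in the mean) and, in KO, with the 2 genotypes alone (0.111). Over all genes the count called in KO was 32, against 225 with DESeq2, 148 without the filter, 104 with the replicate block, 15 with the stricter filter, 12 with 2 genotypes and 11 without WT 3 and V 3. In HxD it was 5, against 215, 67, 45, 1, 2 and 2 in that order, and in V 0, against 80, 32, 8, 0, 0 and 0. Among mutants the counts ranged from 0 to 128, and for the mean of the mutants from 4 to 202 around 21. No pairing by replicate number was seen. Deviations from the genotype means of same-numbered libraries correlated at -0.06 to 0.09, and 0 of 18 pairs passed 0.1. Other pairs correlated at -0.10 to 0.11. With 3 libraries per genotype these correlations cannot exclude a pairing. Piwil4, Gtsf1 and Henmt1 had few counts and wide or no intervals. Each of them had 0 counts in HxD 1, the deepest library, and also in HxD 3 and V 3, which had the lowest totals. The cause of these zeros was not tested.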
